A study of Mus musculus with 8 samples.

Results

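Genes of paired and inhibitory myeloid receptors were followed: Lilrb4a, Pira11, Btla, Pilra, Clec4a2, Cd300a, Cd300lf, Cd300lb, Lair1 and Sirpa. They are 10 of the 15576 gene rows in the deposited count table and were found by symbol. They had been selected on the comparison of CML-TKI with CML libraries in this same table, so their own differences between the groups are given as a description, with no p, and where calls of the fit over all genes are counted for them nothing is read from the count.

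The libraries are bulk RNA-seq of stem cells sorted from the bone marrow of C57BL/6 mice with chronic myeloid leukemia (CML). The study calls the sorted cells leukemic stem cells (LSCs). In this transgenic model the BCR-ABL oncogene is controlled by a tetracycline transactivator driven from the SCL stem cell enhancer, and it comes on when tetracycline is withdrawn. The 4 CML libraries came from untreated mice, and the 4 CML-TKI libraries came from mice of the same model given imatinib, a tyrosine kinase inhibitor (TKI) of BCR-ABL, by gavage on alternate days for 4 weeks. The labels give the dose as 400 mg/kg, while the study's figure legend gives a lower dose for its RNA-seq of LSCs from treated mice. Which dose these libraries had is therefore not settled. All 8 therefore carry the leukemia model, no library of healthy stem cells was used here, and the labels do not give the age of the mice or say which libraries came from separate animals, so that p-values measure only the spread between these libraries.

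Inhibitory receptors of myeloid cells carry short tyrosine motifs, called ITIMs, in their cytoplasmic tails. When phosphorylated by Src family kinases these recruit phosphatases, encoded by Ptpn6, Ptpn11 and Inpp5d, that damp signals from kinases. Many such receptors have activating partners with a like extracellular part but no ITIM, which sit in the membrane with the adaptors encoded by Tyrobp (DAP12) or Fcer1g (the common Fc receptor gamma chain). The genes of a family often lie side by side and differ little in sequence, and most are known from monocytes, granulocytes, macrophages and dendritic cells.

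Total estimated counts ranged from 4939644 to 8620101 in the CML and from 1041552 to 5104268 in the CML-TKI libraries, the lowest being CML-TKI 3. At 3 counts, the limit that a count of 0 allows, this gives between 0.409 and 0.58 CPM (counts per unit of library size, normalized by TMM) in a CML library and between 0.57 and 3.29 CPM in a CML-TKI library. These limits cover counting error only, since no molecular identifiers were used in counting. The biological coefficient of variation was 28.1% among CML and 68.6% among CML-TKI libraries, and 11% among CML 1, 2 and 3, which resembled each other more than any other pairs (chi-square per degree of freedom of 3.58 to 4.75, against 23.8 to 61). The labels number the CML samples 1 to 4, whereas the fourth CML column is named CML 5, so it is matched to the group but to no single labelled sample. The labels give the sort as Lin-Sca1+cKit+Flt3-CD150-CD48+, whereas the study's text defines its LSCs as CD48- CD150+. Slamf1, which encodes CD150, measured 29 to 37.7 CPM in the CML and 0.62 to 6.58 CPM in the CML-TKI libraries, and Cd48 measured 3.87 to 6.4 CPM and 39.9 to 178 CPM. Of the other genes of the sort, Kit measured 764 to 1023 CPM and 194 to 290 CPM. Ly6a, which encodes Sca1, measured 33.2 to 38.5 CPM and 1.56 to 44.2 CPM, and Flt3 15.6 to 17.2 CPM and 7.75 to 63.2 CPM. The summed level of 10 hematopoietic stem cell markers was 1482 to 1673 CPM in the CML and 48.7 to 464 CPM in the CML-TKI libraries, so that for the CML-TKI libraries the data go against the name of stem cells, and the libraries are called by their group only.

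Marker genes of monocytes and granulocytes moved with the groups as well. The summed level of 10 monocyte and macrophage markers was 24.3 to 52.2 CPM in the CML and 1038 to 4773 CPM in the CML-TKI libraries, with 9 of the 10 past the threshold of the test, and Ccr2 at 1.24 to 3.87 against 213 to 1017 CPM. For 11 granulocyte markers the sums were 153 to 260 CPM and 1431 to 8401 CPM, with 9 of the 10 that were tested past the threshold. The highest CML-TKI means among them were those of Mpo (3121 CPM) and Elane (1041 CPM). The groups overlapped for S100a8, Ngp, Camp, Ltf, which did not pass, and Ly6g, which was not tested. The sum of 6 dendritic cell markers was 19.1 to 31.1 CPM in the CML and 15.8 to 55.8 CPM in the CML-TKI libraries. The part of these cells in the receptor levels described next was not tested. In bulk samples, more cells of a type and more RNA of a gene per cell cannot be told apart.

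Of the 10 receptor genes, 8 passed the filter on low counts, and Clec4a2 and Cd300lf did not. Among the 8, 6 were called higher in CML-TKI by edgeR's quasi-likelihood test (adjusted p threshold 0.05) and none lower, also at an unadjusted p under 0.05 and by DESeq2 or limma-voom, where 6.29% of all 11937 genes tested were called higher and 3.93% lower. Every CML-TKI library lay above every CML library for 6 of the 8, as it did for 10.3% of all genes tested. The median log2 fold change of the 8 was 4.87, and that of all genes tested was near 0. It does not change with Pira11 put at its bound, given with its values. Of the 6, only Sirpa reached the level of the filter in all 4 CML libraries, and the other 5 needed the CML-TKI libraries to pass. Nothing is read from these counts. The values that follow are CPM, in the order CML 1, 2, 3 and 5 and then CML-TKI 1, 2, 3 and 4.

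**Figure D1:**
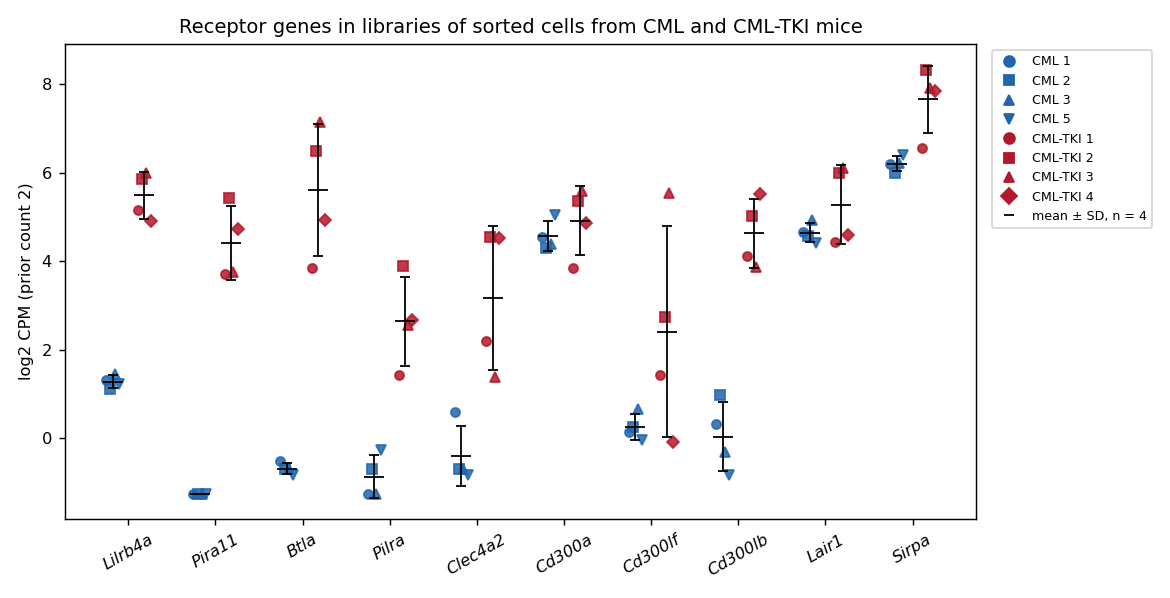
The vertical axis is log2 CPM with a prior count of 2, and each point is 1 library (blue, CML; red, CML-TKI; the shape gives the library's number). Black bars are the mean ± SD of 4 libraries. The groups are apart for Lilrb4a, Pira11, Btla, Pilra, Cd300lb and Sirpa, nearly meet for Clec4a2, whose lowest CML-TKI point is 2 counts, and overlap for Cd300a, Cd300lf and Lair1, where Cd300lf reaches 5.54 in CML-TKI 3 and -0.09 in CML-TKI 4.

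Where RefSeq gives a promoter, the genes can be set beside each other before their levels. Promoter sequence (GRCm38.p6) was found for 7 of the 10 genes: Pilra, Clec4a2, Lair1, Cd300a, Cd300lb, Cd300lf and Btla. It was searched for the letters GAGGAA on both strands, the core of the sites bound by PU.1, an ETS factor of myeloid and lymphoid cells. In the 60 bases before the start they stand in 4 of 7 of these promoters and in 6.08% of all 32851 promoters in the RefSeq table. In the 250 bases before the start they stand in 5 of 7 and in 23.3%. The 60 bases are shown for the 3 CD300 genes, which lie in 1 cluster, for Lair1, and for Btla, 5′ to 3′ on the strand of the gene and ending at the base before the RefSeq start. Capitals mark GAGGAA or its reverse complement.
Btla (chr16:45224277-45224336, plus strand): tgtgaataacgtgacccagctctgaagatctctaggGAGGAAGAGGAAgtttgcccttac
Cd300lf (chr11:115133993-115134052, minus strand): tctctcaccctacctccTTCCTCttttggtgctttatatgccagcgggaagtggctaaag
Cd300a (chr11:114889981-114890040, plus strand): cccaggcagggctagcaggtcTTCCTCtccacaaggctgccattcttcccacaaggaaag
Lair1 (chr7:4063205-4063264, minus strand): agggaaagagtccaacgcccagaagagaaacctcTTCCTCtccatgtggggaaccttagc
Cd300lb (chr11:114934372-114934431, minus strand): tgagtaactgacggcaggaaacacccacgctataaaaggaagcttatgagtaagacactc

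The letters were found in Btla, whose groups did not overlap, and in Cd300a, Cd300lf and Lair1, whose groups did, and they were not found in the same window of Cd300lb and Pilra, whose groups did not overlap, or of Clec4a2. For Btla, Cd300lf, Cd300a and Lair1 the start used lies inside the outer span of the gene. The other motifs searched on both strands of the 250 bases were TGTGGT (the core of RUNX sites, in 2 of the 7 and 14% of all promoters), TTCNNNGAA (the STAT motif, in 1 of the 7, Clec4a2, and 7.02%) and TTGCGNAA (a C/EBP-type motif, in 0 of the 7 and 0.67%). The letters GAA are part of both GAGGAA and TTCNNNGAA, so a match of the motifs can overlap. A match describes the sequence only.

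Lilrb4a encodes an inhibitory immunoglobulin-like receptor with ITIMs, known from monocytes, macrophages and mast cells, which has been described to bind fibronectin. The gene lies at chr10:51490898-51496613 (GRCm38, plus strand). Its level was 2.04, 1.74, 2.32 and 1.93 CPM in the CML and 35.5, 58.3, 63.6 and 29.9 CPM in the CML-TKI libraries. Every CML-TKI library stood far above every CML library. The means were 2.01 ± 0.244 and 46.8 ± 16.6 CPM (SD, n = 4 each), a ratio of 23.3, and the log2 fold change was 4.52 (SE 0.38).

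The neighboring gene Lilr4b ends 4.57 kb before Lilrb4a and is closely alike in sequence, and how reads matching both were divided is not given in the sources used here. Summed, the pair measured 3.51 ± 1.31 CPM in the CML and 73 ± 38.1 CPM in the CML-TKI libraries (SD, n = 4 each). The ratio of the sums was 20.8, close to that of Lilrb4a by itself.

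Pira11 belongs to the paired immunoglobulin-like receptors (PIR), in which the A members are activating and signal through Fcer1g, while the single B member, Pirb, carries ITIMs and binds MHC class I. Pira11 had no count in any CML library. In the CML-TKI libraries it measured 12.5, 42.8, 13.2 and 26.3 CPM, from 66, 138, 12 and 101 counts. All 4 CML-TKI libraries thus had counts of a gene listed at 0 in all 4 CML libraries. Against 3 counts over the whole CML group (0.12 CPM), the CML-TKI mean of 23.7 ± 14.2 CPM (SD, n = 4) was at least 197-fold higher.

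Because the PIR genes are near copies of each other, a value for 1 of them is uncertain, and their sum is the firmer figure. The 8 PIR genes in the table (Pira11, Pirb, Pira1, Pira2, Pira4, Pira6, Pira7 and Lilra6) together measured 4.77, 3.28, 9.28 and 4.12 CPM in the CML and 122, 329, 350 and 235 CPM in the CML-TKI libraries. The groups did not overlap, and the means of 5.36 ± 2.68 and 259 ± 104 CPM (SD, n = 4 each) differed 48.3-fold. Pirb, the inhibitory member, measured 2.04 to 4.25 CPM in the CML and 42 to 217 CPM in the CML-TKI libraries.

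Btla encodes the B and T lymphocyte attenuator, an inhibitory receptor of lymphocytes and some myeloid cells that binds the herpesvirus entry mediator, encoded by Tnfrsf14. The gene lies at chr16:45223705-45252895 (plus strand). It had 2, 1, 1 and 1 counts in the CML libraries (0.272, 0.193, 0.193 and 0.138 CPM) and 73, 288, 128 and 116 counts in the CML-TKI libraries (13.9, 89.2, 140 and 30.2 CPM). The CML libraries were all under their limit of 3 counts, and the CML-TKI libraries differed among themselves by 10.1-fold. Pooled over each group the level was 228-fold higher in CML-TKI, with a counting interval of 97.2 to 705. The means were 0.199 ± 0.0555 and 68.4 ± 57.8 CPM (SD, n = 4 each).

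The CML-TKI library with the most Btla, CML-TKI 3, also had the highest sums of lymphocyte markers of the 8 libraries. The summed level of 5 B cell markers was 163 CPM there, and 16.9 to 23.4 CPM in the other 7 libraries. The summed level of 7 T and NK cell markers was 196 CPM there and 14.2 to 88.7 CPM in the others. In CML-TKI 2, where Btla stood at 89.2 CPM, the B cell sum was 18.9 CPM and the T and NK cell sum 40.9 CPM. Most of each sum there was 1 gene, Cd79b at 16.1 CPM and Nkg7 at 40.3 CPM. Cd79b was at 16.1 to 20.3 CPM in the CML libraries. Of the other B cell markers in CML-TKI 2, Cd79a, Pax5 and Ebf1 were at 0, which allows up to 0.93 CPM. Ms4a1 was at 2.79 CPM, against at most 0.817 CPM in a CML library. The other T and NK cell markers in CML-TKI 2 were at 0.31 CPM or less. The part of lymphocytes in the Btla level was not tested. Without CML-TKI 3 the CML-TKI mean of Btla was 44.4 ± 39.7 CPM (SD, n = 3) and its log2 fold change 7.64, against 8.22 (SE 0.89) with it.

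**Figure D2:**
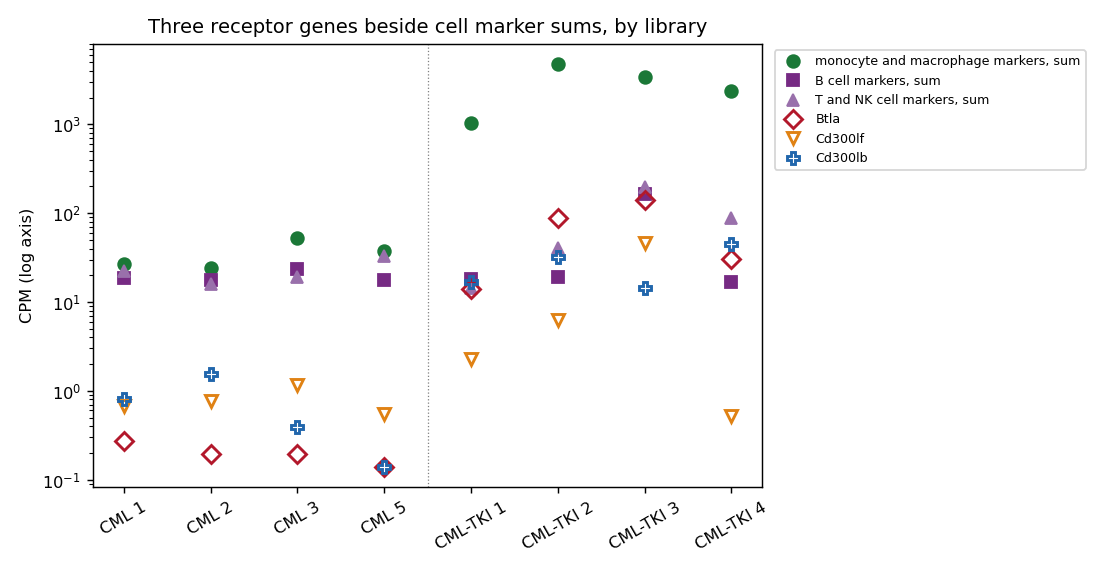
The vertical axis is CPM on a log scale, and the horizontal axis lists the 8 libraries. Filled symbols are summed levels of the monocyte and macrophage, B cell, and T and NK cell markers, and open symbols are Btla, Cd300lf and Cd300lb. The B cell sum is highest in CML-TKI 3 (163 CPM), while Btla is at 13.9 CPM or more in all 4 CML-TKI libraries.

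Pilra encodes an inhibitory receptor with ITIMs that binds sialylated proteins, and its activating partners are Pilrb1 and Pilrb2. The gene lies at chr5:137821952-137836278 (minus strand), and Pilrb1 starts 15.9 kb beyond its end. Its level was 0, 0.193, 0 and 0.412 CPM in the CML libraries, from 0, 1, 0 and 3 counts, and 2.28, 14.3, 5.48 and 5.98 CPM in the CML-TKI libraries, from 12, 46, 5 and 23 counts. The groups did not overlap, but both rest on few counts. The pooled ratio was 40.5, with a counting interval of 15.3 to 152, and the CML-TKI mean was 7 ± 5.11 CPM (SD, n = 4), or 4.58 ± 2.01 CPM (SD, n = 3) without CML-TKI 2. Without CML 5, which held 3 of the 4 CML counts, the log2 fold change was 6.33 against 5.27 (SE 1.08) with it.

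Clec4a2 encodes a C-type lectin receptor with an ITIM, known as a dendritic cell immunoreceptor (chr6:123122690-123143999, plus strand). It measured 1.09, 0.193, 0.193 and 0.138 CPM in the CML libraries and 4.18, 22.9, 2.19 and 22.6 CPM in the CML-TKI libraries, from 8, 1, 1 and 1 and from 22, 74, 2 and 87 counts. The lowest CML-TKI value rests on 2 counts, under that library's limit of 3.29 CPM, so that its place above CML 1 cannot be read at this depth. The pooled ratio was 31.7, with a counting interval of 17.3 to 64.6, and the means were 0.403 ± 0.458 and 13 ± 11.3 CPM (SD, n = 4 each). Without CML 1 the CML mean was 0.175 ± 0.0321 CPM (SD, n = 3).

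The CD300 family holds inhibitory and activating members that bind lipids exposed on dying or activated cells. From Cd300a to Cd300lf it covers 246 kb of chromosome 11 and 11 CD300 genes of the RefSeq table. Cd300a (chr11:114889152-114901946, plus strand) encodes an inhibitory receptor with ITIMs. It measured 22.9, 19.1, 20.7 and 32.5 CPM in the CML and 13.9, 40.9, 48.2 and 28.6 CPM in the CML-TKI libraries. Both the lowest and the highest library were CML-TKI libraries, and the groups overlapped. The means of 23.8 ± 5.98 and 32.9 ± 15.1 CPM (SD, n = 4 each) lay within the spread of the libraries (log2 fold change 0.45, SE 0.40).

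Cd300lf (chr11:115116214-115135372, minus strand) also encodes a receptor with ITIMs. Its level was 0.681, 0.772, 1.16 and 0.55 CPM in the CML and 2.28, 6.2, 46 and 0.52 CPM in the CML-TKI libraries. CML-TKI 3 stood far above all others, while CML-TKI 4, with 2 counts, was as low as the CML libraries. The CML-TKI mean of 13.8 ± 21.6 CPM (SD, n = 4) was 17.4 times the CML mean of 0.791 ± 0.262 CPM, and without CML-TKI 3 it was 3 ± 2.91 CPM (SD, n = 3).

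Cd300lb (chr11:114922779-114934371, minus strand) encodes an activating member that has no ITIM and pairs with DAP12. It measured 0.817, 1.54, 0.387 and 0.138 CPM in the CML and 16.9, 31.9, 14.2 and 45.5 CPM in the CML-TKI libraries. The lowest CML-TKI library lay well above the highest CML library, and the order of the CML-TKI libraries was another than for Cd300lf, CML-TKI 3 being lowest and CML-TKI 4 highest. The means were 0.721 ± 0.616 and 27.2 ± 14.5 CPM (SD, n = 4 each), a ratio of 37.6, with a log2 fold change of 5.23 (SE 0.73). The CML mean rests on 17 counts, of which CML 3 and CML 5 held 2 and 1, and was 0.447 ± 0.344 CPM (SD, n = 3) without CML 2.

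Inhibitory and activating members of the family were then set beside each other per kilobase of transcript. Cd300lb, Cd300ld and Cd300c2, the activating members in the table, made up 8.66, 10.6, 15.8 and 3.39% of the level they share with Cd300a and Cd300lf in the CML and 60.4, 54.9, 33 and 73.7% in the CML-TKI libraries. The shares did not overlap, but those of the CML libraries rest on 9, 8, 7 and 5 activating counts. In CML-TKI 3, where the activating share was the lowest of the 4, Cd300lf was at its highest.

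Lair1 encodes an inhibitory receptor with ITIMs that binds collagens (chr7:4007073-4073567, minus strand). It measured 24.6, 23.6, 30.3 and 21 CPM in the CML and 21.3, 63.5, 68 and 23.7 CPM in the CML-TKI libraries. CML-TKI 2 and 3 were above, and CML-TKI 1 and 4 within, the range of the CML libraries. The means were 24.9 ± 3.93 and 44.1 ± 25.1 CPM (SD, n = 4 each), with a log2 fold change of 0.81 (SE 0.42).

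Sirpa encodes signal regulatory protein alpha, an inhibitory receptor with ITIMs on myeloid cells that binds CD47, the signal by which a cell escapes phagocytosis (chr2:129591042-129632228, plus strand). It measured 72.5, 63.7, 74 and 84.8 CPM in the CML and 94.8, 319, 243 and 231 CPM in the CML-TKI libraries. CML-TKI 1 stood just above the CML range and the other 3 libraries well above it. The means were 73.8 ± 8.67 and 222 ± 93.2 CPM (SD, n = 4 each), a ratio of 3.01, with a log2 fold change of 1.59 (SE 0.33). Its activating relatives Sirpb1a, Sirpb1b and Sirpb1c rested on few counts. Per kilobase they made up 0 to 1.51% of the SIRP level in the CML and 8.67, 7.07, 12 and 4.25% in the CML-TKI libraries, from 0 to 4 and from 17 to 33 counts. For the PILR genes the activating share in the CML-TKI libraries was 58.8, 66.1, 53.3 and 65.8%, whereas in the CML libraries it rested on at most 3 counts in all and is not given.

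**Figure D3:**
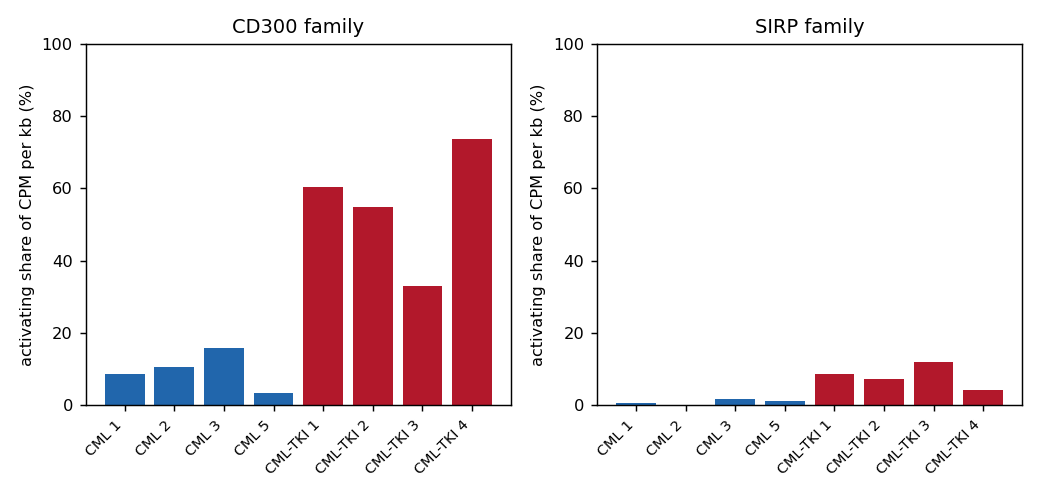
The vertical axis is the share of a family's CPM per kilobase that came from its activating members, in percent, and each bar is 1 library (blue, CML; red, CML-TKI). On the left are Cd300lb, Cd300ld and Cd300c2 against Cd300a and Cd300lf, and on the right Sirpb1a, Sirpb1b and Sirpb1c against Sirpa. The CD300 share is at most 15.8% in the CML and at least 33% in the CML-TKI libraries, and the SIRP share at most 1.51% and at least 4.25%.

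Among themselves the receptors stood in another order in the groups. Per kilobase of transcript, for the 9 genes with a length, the mean level in the CML libraries was highest for Sirpa (18.5), Cd300a (5.12), Lair1 (3.65) and Lilrb4a (1.45 CPM per kb), and the other 5 lay between 0.0587 and 0.419 CPM per kb. In the CML-TKI libraries it was Sirpa (55.7), Lilrb4a (33.9), Btla (21) and Cd300lb (9.43 CPM per kb), followed by Cd300lf, Cd300a, Lair1, Clec4a2 and Pilra between 2.72 and 7.3 CPM per kb. In the CML libraries Sirpa and Lilrb4a stood apart from their neighbors in that order, while Cd300a and Lair1 overlapped, as did each of the lowest 5 with the next. In the CML-TKI libraries all neighbors overlapped. CML-TKI 1 was the lowest of the CML-TKI libraries for 6 of the 10 genes and the highest for none, while CML-TKI 3 was highest for 5, CML-TKI 2 for 4 and CML-TKI 4 for 1. The summed level of the 10 genes was 111 to 142 CPM in the CML libraries and 217, 689, 644 and 444 CPM in CML-TKI 1 to 4. CML-TKI 1 also had the lowest monocyte (1038 CPM) and granulocyte (1431 CPM) marker sums of its group and the highest stem cell marker sum (464 CPM).

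Related receptors outside the 10 were then read from lists of family relatives and other inhibitory or paired receptors. Of 68 symbols, 54 were in the table and 33 passed the filter, which asks for a level of 2.01 CPM of the total counts in 4 libraries. Of these 33, edgeR called 24 higher in CML-TKI and none lower, which is 72.7% higher where 6.29% of all genes were. However, 19 of the 24 were below that level in at least 1 CML library and needed the CML-TKI libraries to pass. Of the related receptors 21 were below it in this way, and of all genes tested 925 were, of which 223 were called higher. Such genes enter the test through their CML-TKI levels, so nothing is read from the 19 calls. The 19 are given below as values without a p. Of the 12 that reached the level in all 4 CML libraries, 5 rose (41.7%), where 4.79% of the 11012 such genes were called higher. The median log2 fold change of the 12 was 0.75, and 5 of the 12 had every CML-TKI library above every CML library, as 8.98% of such genes had. By edgeR 1 of the 33, Treml1, was lower at an unadjusted p under 0.05, and DESeq2 called 0 and limma-voom 2 lower (Treml1 and Treml2). With CML 1, 2 and 3 summed to 1 library, Pirb was the only 1 of the 5 that passed.

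The 5 were Pirb, Clec7a, Cd244a, Vsir and Ceacam1, the last 3 named after their values were seen, and their calls held with each library left out in turn. Pirb had a log2 fold change of 5.18 (edgeR adjusted p = 0.00102), or 4.57 without CML-TKI 3. It is a near copy of other PIR genes, the selected Pira11 among them. Its value by itself is therefore uncertain, and its call may not be independent of Pira11. Clec7a, the receptor for fungal beta-glucan also called dectin, had one of 3.26 (0.00333). Cd244a, a receptor of the SLAM family known from NK cells, had one of 3.62 (0.00655), or 2.93 without CML-TKI 3. Vsir encodes VISTA, an inhibitory receptor and ligand of myeloid cells, and measured 30.5 to 42.1 CPM in the CML and 88.5, 290, 310 and 294 CPM in the CML-TKI libraries (2.80, 0.00218). Ceacam1, an adhesion receptor with ITIMs, measured 4.95 to 9.08 CPM and 20.1 to 58.9 CPM (2.53, 0.00466).

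The other PIR and LILR relatives were low in the CML libraries. The activating Pira1 measured 1.5, 0.579, 2.71 and 0.687 CPM there and 25.1, 58, 55.9 and 44.8 CPM in the CML-TKI libraries. Lilr4b, the relative of Lilrb4a that lacks ITIMs, measured 0.817, 1.54, 3.09 and 0.55 CPM and 5.51, 19.5, 61.4 and 18.5 CPM, and its CML-TKI mean went from 26.2 to 14.5 CPM without CML-TKI 3. The activating receptors Pira7, Pira4 and Lilra6 had 3, 5 and 12 counts in all in the CML libraries, and every CML-TKI library lay above every CML library. Their pooled ratios were 87.3 (counting interval 29.3 to 429), 41.5 (17.2 to 130) and 37.4 (21 to 73.4). Without CML 3 their CML means went from 0.131, 0.213 and 0.508 CPM to 0.0454, 0.0908 and 0.227 CPM. Only 1 of the 3 CD300 relatives in the table was tested, Cd300lg, an endothelial member, at 5.76 ± 5.33 and 8.19 ± 3.4 CPM (SD, n = 4 each; log2 fold change 0.47, edgeR adjusted p = 0.765), and its CML mean was 3.56 ± 3.68 CPM (SD, n = 3) without CML 5.

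Of the other C-type lectin relatives, Clec12a, an inhibitory receptor with an ITIM on myeloid cells, measured 0.965 to 1.93 CPM in the CML and 32.5, 158, 118 and 146 CPM in the CML-TKI libraries. Clec5a, which signals through DAP12, measured 0.138 to 2.45 CPM and 27.9, 147, 82.2 and 34.6 CPM, and its CML-TKI mean went from 73 to 48.2 CPM without CML-TKI 2. Clec4a1 had 3 counts in all in the CML libraries, with a pooled ratio of 47.8 (counting interval 15.7 to 237). Of the PILR and SIRP relatives only Sirpb1c was tested. It had 5 counts in all in the CML libraries, with a pooled ratio of 18.5 (7.4 to 59.4), and its CML-TKI mean of 6 ± 6.24 CPM (SD, n = 4) was led by 15.3 CPM in CML-TKI 3, without which it was 2.88 ± 0.463 CPM (SD, n = 3).

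Among the other inhibitory and paired receptors, Cd200r3, an activating relative of the CD200 receptor, had no count in the CML libraries and 3.04, 13.3, 15.3 and 17.2 CPM in the CML-TKI libraries, at least 102-fold higher against 3 counts over the CML group. Fcgr2b, an Fc gamma receptor that carries an ITIM, had means of 1.96 ± 0.941 and 74.9 ± 44.2 CPM (SD, n = 4 each). The activating Fc gamma receptor Fcgr3 had means of 1.25 ± 0.899 and 123 ± 61.5 CPM (SD, n = 4 each). The sialic acid binding receptors Siglece and Siglecg had CML-TKI means of 13.9 ± 9.52 and 21.8 ± 13.5 CPM against 0.496 ± 0.472 and 0.991 ± 0.614 CPM. Trem3, a DAP12 partner, and Fcgr1, the high affinity receptor for IgG, had CML-TKI means of 19 ± 9.77 and 8.97 ± 9.24 CPM against 0.901 ± 0.611 and 0.638 ± 0.514 CPM. Without CML-TKI 2 the CML-TKI mean of Fcgr1 was 4.41 ± 1.93 CPM (SD, n = 3). Trem1, another DAP12 partner, measured 0 to 2.32 CPM and 6.27, 40.3, 26.3 and 3.38 CPM, with a CML-TKI mean of 19.1 CPM, or 12 CPM without CML-TKI 2. Of this list 7 of the 20 tested did not pass, and they had log2 fold changes from -2.34 (Treml1) to -0.04 (Pecam1), 2 genes named for the ends of that range after their values were seen. Pecam1, an ITIM receptor also of stem and endothelial cells, was at 60 ± 11.2 and 58.7 ± 17.7 CPM (SD, n = 4 each).

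**Figure D4:**
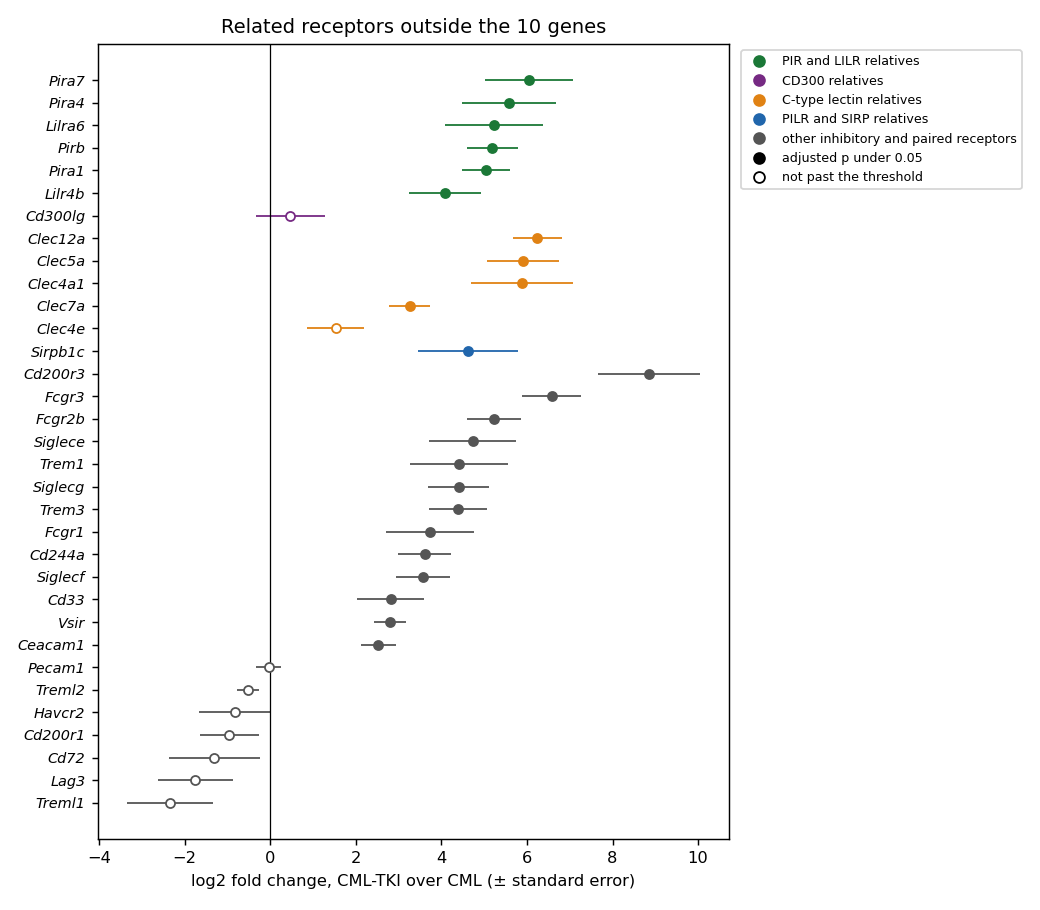
The horizontal axis is the log2 fold change of CML-TKI over CML, points are estimates from edgeR and lines are ± 1 standard error, for the 33 related receptors that were tested. Filled points have an adjusted p under 0.05 and open points do not, and colors give the family. All 24 filled points lie to the right of 0, and 19 of them are genes that needed the CML-TKI libraries to pass the filter.

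Of 14 genes that encode ligands of these receptors and were tested, 1 rose (7.14%, where 6.29% of all genes did), 4 were called lower (28.6%, where 3.93% were) and 9 did not pass. Col4a2 needed the CML libraries to pass the filter, and of the 8 ligands that did not, 3 fell (37.5%, where 3.57% of such genes did). Cd47, the ligand of Sirpa, measured 405 ± 41 and 404 ± 152 CPM (SD, n = 4 each; log2 fold change -0.01, SE 0.30, edgeR adjusted p = 0.993), and Tnfrsf14, the ligand of Btla, 19.8 ± 1.28 and 32.5 ± 10.9 CPM (0.70, SE 0.33, 0.208). Fn1, which encodes fibronectin, rose from 9.76 to 15.5 CPM in the CML to a range of 91.2 to 1012 CPM in CML-TKI (5.24, 0.00166), and its log2 fold change was 4.55 without CML-TKI 4. The 3 that fell were Cd274, which encodes PD-L1 (-1.95, 0.00281), and the MHC class I genes H2-K1 (-1.57, 0.00325) and B2m (-1.05, 0.0404). Col4a2, a basement membrane collagen, measured 61.8 to 113 CPM in the CML and 23.4, 0.31, 13.2 and 1.56 CPM in the CML-TKI libraries, with a mean of 9.6 CPM, or 5.01 CPM without CML-TKI 1. The call of B2m was lost without CML 1, CML 2, CML 3, CML 5, CML-TKI 3 or CML-TKI 4 (adjusted p up to 0.108), and the count of ligands called went with it and Col4a2 from 5 to 3. With CML 1, 2 and 3 summed to 1 library only H2-K1 passed (0.0483), and Fn1 did not (0.0595). Col1a1 and Col1a2, chosen after their values were seen, stood at 396 and 276 CPM in CML 3 and at no more than 49 CPM in any other library.

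Of 18 adaptors, kinases and phosphatases tested, 5 were called higher and none lower by edgeR. Tyrobp and Fcer1g needed the CML-TKI libraries to pass the filter, and of the 16 that did not, 3 rose (18.8%, where 4.79% of such genes did). At an unadjusted p under 0.05, 1, Csk, was lower, as it was by DESeq2, while limma-voom called 4 lower (Csk, Fyn, Plcg2 and Src). With edgeR, Csk was also called lower without Rn45s in the totals or without CML-TKI 4, and Fyn and Src without CML-TKI 1. The adaptors of the activating receptors are given without a p. Tyrobp measured 1.35 ± 0.534 CPM in the CML and 42.1 ± 22.1 CPM in the CML-TKI libraries, and Fcer1g 1.97 ± 0.784 and 21.7 ± 12.7 CPM (SD, n = 4 each), with every CML-TKI library above every CML library for both. The Src family kinases Fgr (log2 fold change 3.04, edgeR adjusted p = 0.0142) and Lyn (1.26, 0.0435) and the adaptor Lat2 (2.96, 0.00435) rose. The call of Fgr was lost without CML 1, CML 2 or CML 5 (up to 0.055), its log2 fold change being 3.67 without CML 3, and that of Lyn with any library but CML-TKI 1 left out (up to 0.117). The count of 5 went to 3 without CML 1, CML 2 or CML 5 and to 8 without CML-TKI 1. With CML 1, 2 and 3 summed, Fgr (0.1), Lat2 (0.121) and Lyn (0.304) did not pass. The phosphatases that ITIMs recruit did not pass the test. Ptpn6 measured 82.2 ± 11.2 and 147 ± 59.4 CPM (SD, n = 4 each; 0.83, SE 0.32, 0.132), Ptpn11 194 ± 29.6 and 167 ± 46.8 CPM (-0.21, SE 0.24, 0.625) and Inpp5d 194 ± 6.68 and 180 ± 55.6 CPM (-0.11, SE 0.26, 0.831).

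**Figure D5:**
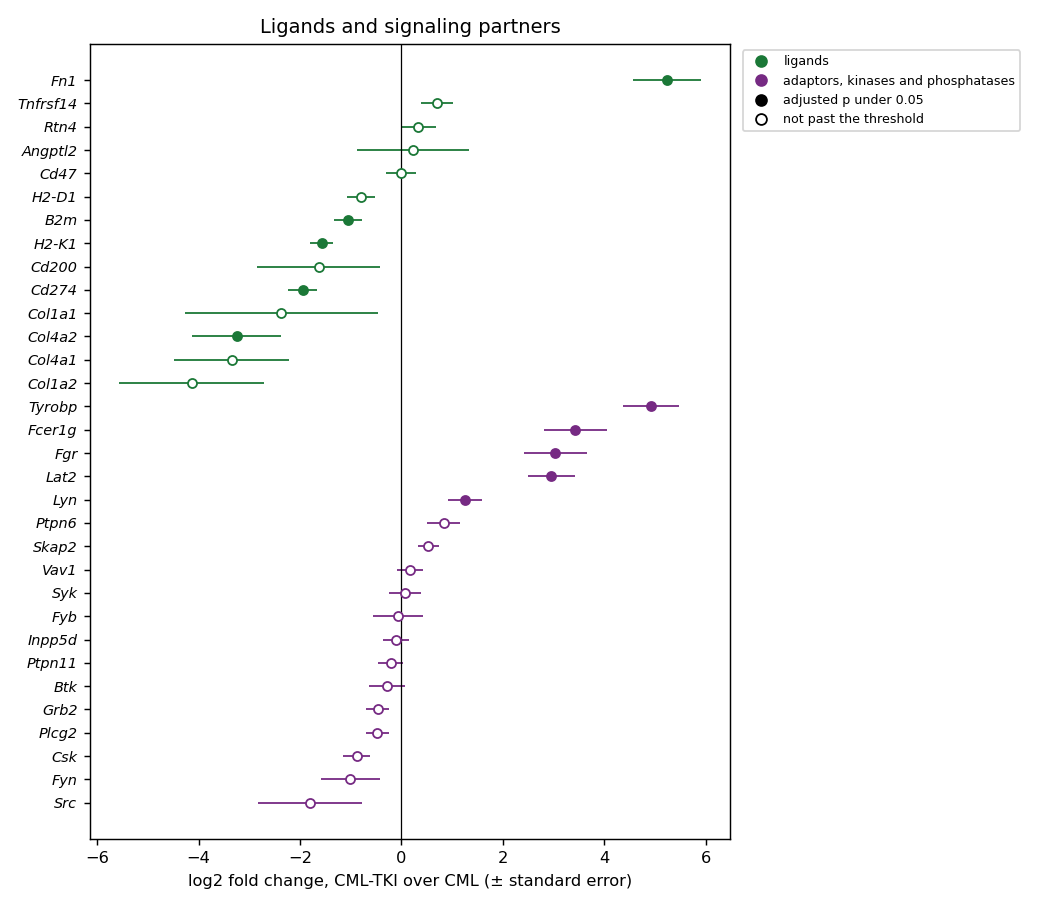
The horizontal axis is the log2 fold change of CML-TKI over CML with ± 1 standard error, for the 14 ligand genes (green) and 18 adaptor, kinase and phosphatase genes (purple) that were tested. Filled points have an adjusted p under 0.05. Fn1 (5.24) and Tyrobp (4.92) lie farthest to the right, and Ptpn11 and Inpp5d lie at -0.21 and -0.11.

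Outside all lists, the genes whose profile over the 8 libraries was closest to the mean profile of the 8 tested receptors were Emb, Ap1s2 and Hopx. The measure was the root mean square difference of log2 CPM, each gene centered on its own mean, and came to 0.161, 0.239 and 0.244. Emb, which encodes the membrane glycoprotein embigin, measured 33.6 to 42.3 CPM in the CML and 165 to 701 CPM in the CML-TKI libraries. Ap1s2, a subunit of a clathrin adaptor complex, measured 4.9 to 7.92 and 34 to 127 CPM. Hopx, which encodes a homeodomain protein that binds no DNA, measured 0.55 to 0.772 and 3.8 to 17.5 CPM.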

How the data were processed

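Sorted bone marrow cells, labelled stem cells, of 4 CML and 4 CML-TKI samples were profiled by bulk RNA-seq from Nextera XT libraries. The authors deposited estimated counts per gene, not normalized, and the submitters' processing notes name STAR 2.6.1d, Partek 8.0 and mm10. Because the reads were assigned to genes by the authors, levels of near copies (PIR, LILR, PILR and SIRPB genes) are uncertain, and strandedness and the treatment of reads that match several genes are not given in the sources used here. Rn45s took 9.23 to 38.3% of a library's counts and was kept in the library sizes.

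The counts were rounded and then tested with edgeR 4.0.16 (R 4.3.3): library sizes were scaled by TMM, genes were kept by filterByExpr with a minimum count of 10 and a minimum total of 15, and robust quasi-likelihood fits gave p-values for 11937 genes, adjusted by Benjamini-Hochberg with a threshold of 0.05. CPM is given after TMM scaling, on the log2 scale with a prior count of 2. An SE was taken as the ratio of the log2 fold change to the root of its F statistic. A fold against a group at 0 uses 3 counts over that group as its floor, and pooled ratios have exact counting intervals. Lengths are those of the longest protein-coding transcript in GENCODE, and coordinates and promoters are from RefSeq (GRCm38.p6). The script was tested on simulated counts.

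Some genes of the lists are not reported here. The 10 genes and all lists were chosen with earlier results of these data known. Named were the 10 genes, of each other list at most 8 genes past the threshold with the largest change, Cd47, Tnfrsf14, Tyrobp, Fcer1g, Ptpn6, Ptpn11 and Inpp5d whatever their values, and the 3 genes closest in profile to the tested receptors. Outside this rule, Cd300lg was named as the only CD300 relative tested. Treml1, Treml2, Csk, Fyn, Plcg2 and Src were named for being lower in an alternative or at an unadjusted p. Further genes were named as parts of a family's sum or share, or are marked as chosen after their values were seen. Marker genes and markers of the sort were named for the libraries' identity. Alternatives were the normalization, the filter, DESeq2 1.42.0, limma-voom (limma 3.58.1) with quality weights, thinning to the smallest total count (Rn45s included), a replicate block, and libraries left out or summed.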

Additional observations from a re-analysis of the deposited data

Results flagged for a closer look

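Of the 20 sets of 4 values checked (10 genes in each group), 2 held a library far from the other 3, where chance flags about 1 in 20. Clec4a2 measured 1.09 CPM in CML 1 from 8 counts, and the gap to the next library was 0.941 of the whole range of the group. Cd300lf measured 46 CPM in CML-TKI 3 from 42 counts, with a gap of 0.875 of the range. CML-TKI 3 has the smallest total count and the highest B cell marker sum (163 CPM), and the part of either in the Cd300lf value was not tested.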

How the results depend on the processing

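Counts of calls depended on the alternative. With limma-voom the log2 fold changes of Btla and Pira11 were 7.08 and 8.14, against 8.22 and 9.83. With every library thinned to the smallest total, Pira11 was at 7.54, and Lilrb4a at 5.09 against 4.52. Since Pira11 had no CML count, its log2 fold change is not an exact value. Of all genes 1220 passed the threshold, against 2157 with DESeq2, 2579 with limma-voom, 122 with CML 1 to 3 summed and 505 to 2504 with 1 library left out (505, 552, 570 and 808 without CML 1, 2, 3 and 5, and 2504 without CML-TKI 1). Higher in CML-TKI were 751 of the 1220, against 1154 of 2157 with DESeq2 and 1254 of 2579 with limma-voom. With total counts without Rn45s it was 601 of 1186, so the excess of higher calls depends on the scaling and the tool. Of the receptors 6 passed, against 3 with CML 1 to 3 summed (Pilra, Sirpa and Cd300lb lost) and 4 to 7 with 1 library left out (Pilra and Sirpa lost). Of the related receptors 24 passed, against 5 summed, 9 of the 14 still tested with every library thinned to the smallest total and 18 to 27 with 1 library left out. Ligand calls went from 5 to 1 summed and 3 to 7 with 1 library left out, and adaptor, kinase and phosphatase calls from 5 to 10 with limma-voom, 1 summed and 3 to 8. The median log2 fold change of the receptors, 4.87, was 4.50 to 5.02 with 1 library left out and 3.38 after that thinning, where Btla and Pilra were no longer tested; the 6 genes left had a median of 3.05 at full depth. The cause of the other differences was not tested.

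Only numbers 1 to 3 occur in both groups' columns, and same-numbered libraries deviated together by correlations of -0.0416, 0.0972 and 0.0934, so the numbers were not taken as pairs. With a replicate block on these 6 libraries 193 genes passed, 2 of the receptors, 6 related receptors, 2 ligands and 2 adaptors, kinases or phosphatases. The same 6 libraries without the block, an alternative chosen after seeing the data, gave 589, 5 of the receptors, 14 related receptors, 3 ligands and 3 adaptors, kinases or phosphatases. Depth limits Pira11, Btla, Pilra, Clec4a2 and Cd300lb in the CML libraries, and Clec4a2, Pilra and Cd300lf in single CML-TKI libraries of at most 5 counts. The CML level of Cd300lf also rests on few counts, 4 to 6 in a library.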
